A study of Homo sapiens with 10 samples.

Results

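The keratin genes were examined in the chromatin of MDAMB231 cells, a triple-negative human breast cancer line. They were taken as the protein-coding genes of chromosomes 12 and 17 in GENCODE release 44 (mapped to GRCh37) whose symbol is KRT, a number and an optional letter from A to C. This gave 55 genes of 20098 protein-coding genes on chromosomes 1 to 22 and X, with 27 on chromosome 12 and 28 on chromosome 17. By protein type, 26 were type II keratins, all on chromosome 12, and 29 were type I keratins, of which KRT18 alone lies on chromosome 12. The cells were untreated and grown in DMEM with 5% FBS, and no other genotype or treatment enters here. ChIP-seq (chromatin immunoprecipitation followed by sequencing) was performed for H3K4me3, H3K27Ac and H3K4me1, and FAIRE-seq for nucleosome-depleted DNA that stays in the aqueous phase after formaldehyde crosslinking. Each assay had 2 samples that the authors combined into 1 list of peaks called against input DNA. The lists therefore carry no error between replicates, no test over samples could be made, and every count below describes the combined libraries. Read totals are not held in the lists, so the depth behind a missing peak is unknown here, and a gene without a peak had no peak at this depth and threshold.

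Keratins are the intermediate filament proteins of epithelia. A filament is built from pairs of an acidic type I and a basic type II chain, so that KRT8 pairs with KRT18 and KRT5 with KRT14, and the genes of each type lie side by side in a dense cluster. In the mammary gland, KRT8, KRT18, KRT19 and KRT7 are the keratins of simple, luminal epithelium, whereas KRT5, KRT14 and KRT17 mark the basal layer and the myoepithelium. H3K4me3 is known as a mark of promoters, H3K27Ac of active promoters and enhancers, and H3K4me1 of enhancers, whether active or poised.

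The lists held 18019 H3K4me3 peaks, 37495 H3K27Ac peaks, 26771 H3K4me1 peaks and 46552 FAIRE peaks, with median widths of 2524, 2664, 3041 and 913 bp. Histone peaks are given with their MACS scores, in which a p-value against input lower by a factor of 10 adds 10 units, and FAIRE peaks with the height of their signal. Among H3K4me3 peaks 56.8% had scores of at least 3100, as did 10.5% of H3K27Ac peaks, and no order can be read among peaks at this ceiling. All 5 mesenchymal genes checked (VIM, CD44, CAV1, AXL and ZEB1) carried peaks of all 4 lists at their promoters, against 13.1% of all protein-coding genes. Of 7 epithelial and luminal genes, 2 (EPCAM and ERBB2) carried peaks of all 4 lists, and 6 an H3K4me3 peak (67.3% of all genes). An H3K27Ac peak was found at 4 (63.5%), EPCAM, ERBB2, GATA3 and CDH1, and not at ESR1, FOXA1 and PGR. The gene without H3K4me3 was CDH1, which encodes E-cadherin and had an H3K27Ac score of 538 and a FAIRE height of 31.7.

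The 200 bases upstream of the canonical start, the start of the transcript that GENCODE marks as canonical, were searched on both strands for the TATA box letters TATAAA, the CAAT box letters CCAAT and the GC box letters GGGCGG. The letters TATAAA were present in 26 of 55 keratin genes (47.3%), against 7.86% of all protein-coding genes. GGGCGG was present in 10 keratin genes (18.2%), against 56.0% of all. The median number of CpG was 2 for keratin genes and 15 for all genes. The 5 keratin genes with an H3K4me3 peak at the canonical start held 3 to 28 CpG (median 8), and 4 of them held GGGCGG. The other 50 held 0 to 12 CpG (median 2), and 6 of them held GGGCGG, so the ranges of CpG overlapped. Over all genes the medians were 19 with and 4 without the peak, and GGGCGG was present in 71.2% with and 28.5% without it. CCAAT was present in 38.2% of keratin genes and 30.2% of all. TGANTCA, the letters of the AP-1 site with the middle base left open, was present in 3.64% and 3.75%. A match says only that the letters stand in this window.

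To ask which keratin genes carried the chromatin of a promoter, a promoter was taken as any annotated start site widened by 1 kb on each side, and 1 shared base with a peak counted. Peaks of H3K4me3 were found at 5 keratin promoters (9.09%), those of KRT8, KRT18, KRT7, KRT19 and KRT80, against 67.3% of all protein-coding genes. H3K27Ac peaks were found at 9 (16.4%), the same 5 with KRT86, KRT39, KRT34 and KRT15, against 63.5%. H3K4me1 peaks were found at 3 (5.45%), KRT8, KRT39 and KRT34, against 20.0%. FAIRE peaks were found at 6 (10.9%), KRT80, KRT7, KRT8, KRT18, KRT15 and KRT16, against 39.3%. With start sites widened by 2 kb the FAIRE count was 11, against 43.0% of all genes. KRT8 was the single keratin gene with peaks of all 4 lists (1.82%), against 13.1% of all genes. The remaining 45 keratin genes (81.8%) had no peak of any list at the promoter, against 29.3%. All 4 shares were below those of the genome, and the share without a peak was above it.

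**Figure D1:**
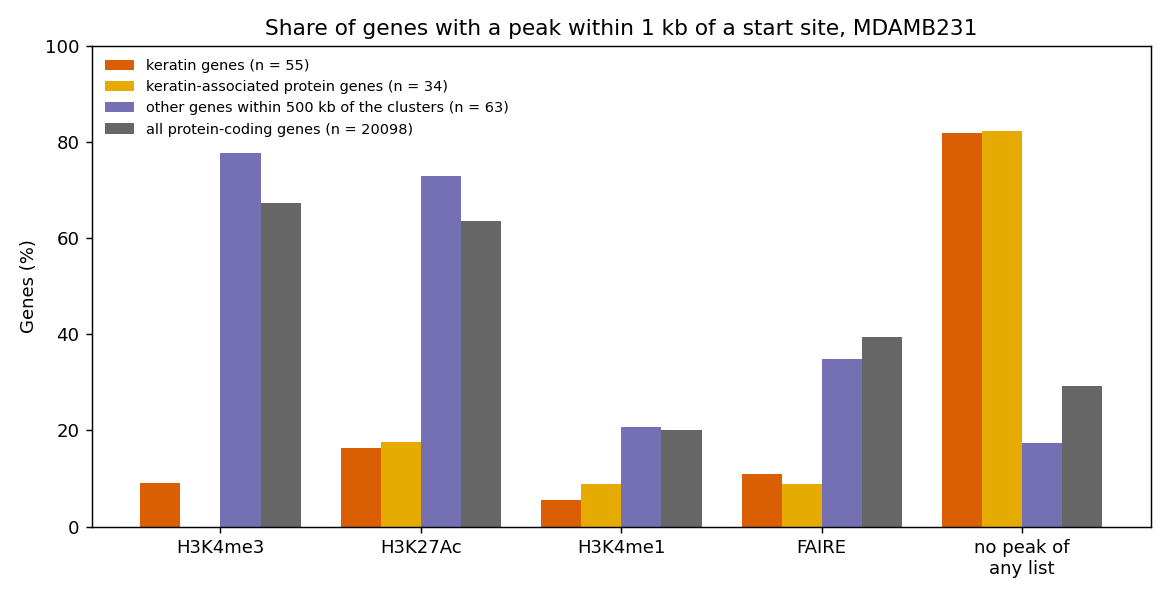
Share of genes (%) with a peak of each list within 1 kb of a start site, and with none, for 55 keratin genes, 34 keratin-associated protein genes of the type I cluster, 63 other genes within 500 kb of the clusters and 20098 protein-coding genes. Keratin genes reached 9.09% for H3K4me3, while their neighbours outside the clusters reached 77.8%, and 81.8% of keratin genes had no peak.

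The genes around the clusters were counted in the same way. Among the 63 other protein-coding genes within 500 kb of either cluster, 49 (77.8%) carried an H3K4me3 peak and 46 (73.0%) an H3K27Ac peak. The shares of all genes were 67.3% and 63.5%. H3K4me3 was found at 29 of 33 neighbours of the type I cluster (87.9%) and 20 of 30 of the type II cluster (66.7%). Only the former was above the share of all genes. H3K27Ac was found at 26 (78.8%) and 20 (66.7%), both above that share. FAIRE peaks were found at 22 of the 63 genes (34.9%, against 39.3%) and H3K4me1 peaks at 13 (20.6%, against 20.0%). The latter were 3 of the 30 neighbours of the type II cluster and 10 of the 33 of the type I cluster. Among the 34 keratin-associated protein genes, which lie within the type I cluster and encode matrix proteins of the hair shaft, 0 carried an H3K4me3 peak, 6 an H3K27Ac peak, 3 an H3K4me1 peak and 3 a FAIRE peak. Of these neighbours of the hair keratins, 28 (82.4%) had no peak of any list at the promoter. This share was close to the 81.8% of the keratin genes, against 29.3% of all genes and 17.5% of the 63 genes around the clusters.

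Because several keratin genes have start sites deep inside the gene, the calls were also made at the canonical start alone, a choice made after seeing the data. The same 5 genes kept H3K4me3 (64.4% of all genes by this rule). H3K27Ac was found at 6 genes, the same 5 and KRT34 (59.5% of all genes). H3K4me1 remained at KRT34 (12.3%), and FAIRE at KRT80, KRT18 and KRT16 (31.4%). KRT8 was thus no longer covered by all 4 lists, since its H3K4me1 peak and its FAIRE peaks lay at other start sites.

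**Figure D2:**
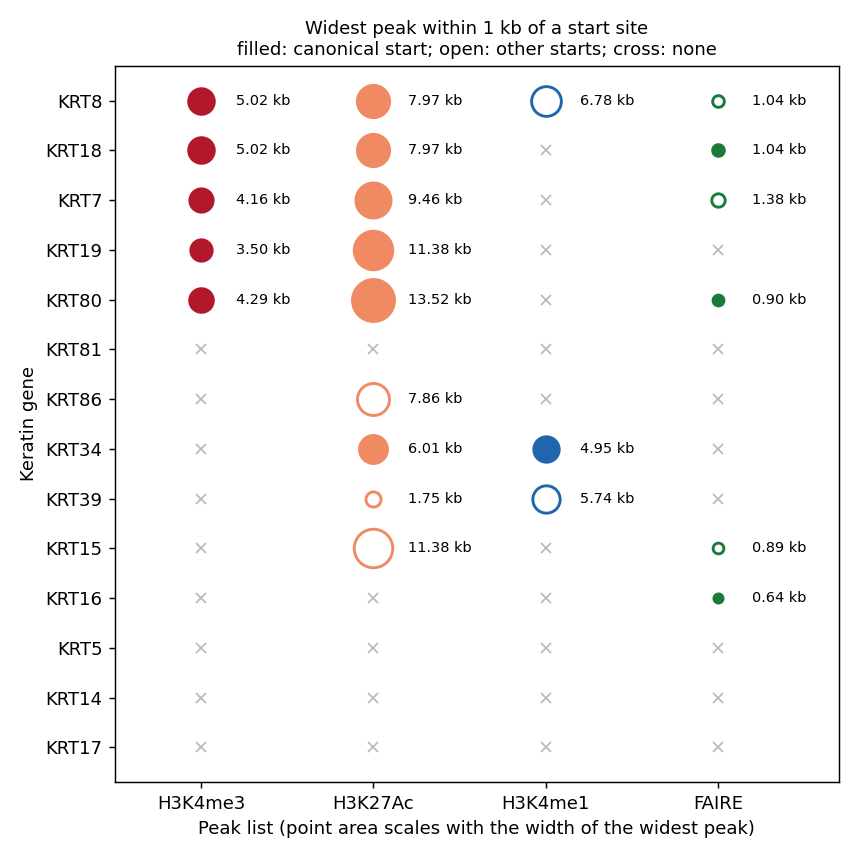
Widest peak within 1 kb of a start site for 14 keratin genes (rows) and the 4 lists (columns), with point area in proportion to peak width and the width in kb beside it. Filled points reach the canonical start, open points other starts, and crosses mark no peak, as for KRT81, KRT5, KRT14 and KRT17 in every list.

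KRT8 and KRT18, partners in the filament of simple epithelia, are neighbours at the end of the chromosome 12 cluster, and both carried H3K4me3 and H3K27Ac. At KRT8, an H3K4me3 peak of 3667 bp (chr12:53295871-53299537, score 3100) covered the canonical start. An H3K27Ac peak of 7453 bp over the same start scored 3129, within the range of the ceiling. Over the canonical start of KRT18, the H3K4me3 peak (chr12:53341460-53346482) was 5023 bp wide with a score of 3100, wider than 96.1% of its list, but the H3K27Ac peak of 7975 bp scored 394, higher than only 40.8% of its list. KRT8 has 18 annotated start sites, of which 8 fall at the H3K4me3 peak of KRT18, so the KRT18 peaks also count for KRT8. A FAIRE peak with a height of 106 began 300 bp from the canonical start of KRT18. Within 1 kb of the canonical start of KRT8 there was no FAIRE peak. Another region lay in a KRT8 intron, 18136 bp upstream of its canonical start, where H3K27Ac (5640 bp, score 3100), H3K4me1 (6781 bp, score 290) and FAIRE peaks (heights of 72.4 and 70.3) coincided at the start of a transcript that begins upstream.

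KRT7, a type II keratin of glandular and ductal epithelia, and KRT19, the smallest type I keratin, had the same pair of marks. At KRT7, an H3K4me3 peak of 4156 bp (chr12:52625605-52629760) and an H3K27Ac peak of 9458 bp both scored 3100 over the canonical start. A further H3K27Ac peak of 7855 bp (score 887) and FAIRE peaks with heights of 105 and 109 lay over internal starts, 10661 and 13370 bp from the canonical start for the FAIRE peaks. The FAIRE peak closest to the canonical start of KRT7 was 1822 bp away, with a height of 76.1. At KRT19, the H3K4me3 peak (chr17:39682000-39685500) scored 3100 and was 3501 bp wide, and the H3K27Ac peak scored 1824 and was 11383 bp wide, wider than 99.1% of its list. The nearest FAIRE peak, with a height of 143, was 1493 bp from the start. KRT7, KRT8 and KRT19 thus had both promoter marks at the canonical start and a FAIRE peak only farther than 1 kb from it. KRT20, the simple keratin of gut and urothelium, had no peak at its promoter, and the nearest of any list was 15219 bp away.

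KRT80, a type II keratin of differentiated epithelia, and KRT81, a hair keratin known to be expressed in breast cancer lines, differed. KRT80 had an H3K27Ac peak of 13517 bp (chr12:52575520-52589036, score 2421), wider than 99.5% of its list and the widest at any keratin promoter. Its H3K4me3 peak was 4287 bp wide but scored 564, higher than only 24.1% of the list. A FAIRE peak 150 bp from the canonical start had a height of 144, higher than 97.3% of the list and the highest at a keratin promoter, and others with heights of 71.1 and 56.9 lay at an internal start. KRT81 had no peak of any list within 1 kb of a start. The nearest H3K27Ac peak, with a score of 532, was 2505 bp away over the 3′ part of KRT81 within the overlapping KRT86 gene, the nearest FAIRE peak was 9603 bp away and the nearest H3K4me3 peak 16062 bp away. Only 59.7% of the 50-base windows around the KRT81 start occur once in the genome, the lowest share among the keratin genes.

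The basal keratins KRT5, KRT14 and KRT17 had no peak of any list at the promoter. From the closest start site, the nearest peak of any kind was 188135 bp away for KRT5, 25743 bp for KRT14 and 7556 bp for KRT17. From the canonical start it was 192333 bp, 25743 bp and 11302 bp away. KRT15, a type I keratin of the basal layer, was the exception in this class, because the broad H3K27Ac peak of KRT19 (score 1824) and a FAIRE peak (height 79.3) covered start sites of transcripts that begin upstream. Its canonical start was 1552 bp from that H3K27Ac peak and 2497 bp from the FAIRE peak. Among the keratins induced in wounded or activated epidermis, KRT6A, KRT6B and KRT6C had no peak, and KRT16 had a FAIRE peak of 636 bp over its canonical start, with a height of 47.8, higher than 26.2% of the list, and no histone peak. Sequence that repeats elsewhere gives fewer reads that can be placed, and 50-base windows occurring once made up 99.8% around the start of KRT5, 80.8% for KRT17, 84.9% for KRT14, 78.7% for KRT16 and 60.9% to 77.7% for KRT6A, KRT6B and KRT6C. KRT8 and KRT34, which had peaks, reached 86.9% and 87.2%. The share was at least 90% for 46 of the 55 keratin genes, with a median of 99.9%. It was under 90% for 16.4% of the keratin genes and for 10.6% of 802 other genes. Whether it bears on the missing peaks was not tested.

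Of 16 hair keratins, counted without KRT81, 0 had an H3K4me3 peak (67.3% of all genes) and 3 an H3K27Ac peak (63.5%) at the promoter. At KRT34, an acidic hair keratin, an H3K27Ac peak of 6006 bp (chr17:39533454-39539459, score 1992) covered the canonical start, and an H3K4me1 peak of 4952 bp (score 194) ended 267 bp from it. The nearest H3K4me3 peak was 143442 bp away, and a FAIRE peak with a height of 102 lay in an intron of KRT34, 1464 bp from the start. KRT39 had an H3K27Ac peak of 1751 bp (score 86.7) and an H3K4me1 peak of 5738 bp (score 430) at a start inside the gene, 5608 bp and 5821 bp from its canonical start. KRT86 was counted through a start site upstream, inside KRT7, where the H3K27Ac peak with a score of 887 lay 24749 bp from the canonical start. H3K27Ac without H3K4me3 was found at KRT34, KRT39, KRT86 and KRT15, 7.27% of keratin genes, against 2.19% of all genes, and at the canonical start KRT34 alone (1.82%) showed it, against 1.38%. With the peak centre inside the promoter, KRT39 alone remained of the 4, whereas KRT39 was lost at MACS p at or under 1e-10. Of the other classes, 0 of 14 suprabasal and regional keratins and 0 of 9 inner root sheath and companion layer keratins had a promoter peak. KRT222 had none either, against 29.3% of all protein-coding genes without a peak of any list.

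The distance to the nearest peak of any list varied between these classes. Measured from the closest start site, the median was 0 for all protein-coding genes and 15.2 kb for keratin genes. It was 0 for the simple epithelial keratins, 6.62 kb for the 16 hair keratins, 16.6 kb for basal, 44.6 kb for suprabasal and regional, 106 kb for inner root sheath and companion layer, and 134 kb for activation keratins. Several classes mixed both clusters. KRT16 lay at 0 among activation keratins, and type I keratins of the inner root sheath class within 23716 bp (KRT25) of a peak. More than 100 kb from any peak lay 12 keratin genes (21.8%), against 4.69% of all genes. All 12 belonged to the type II cluster, and the farthest was KRT72, a keratin of the inner root sheath, at 267983 bp. KRT10, a suprabasal keratin of the epidermis, was near peaks without being counted. An H3K4me1 peak with a score of 107 was 1131 bp from its start. An H3K4me3 peak (score 3100) and an H3K27Ac peak (score 3042) lay in its gene body, 2149 and 2171 bp from its start, where the long non-coding RNA gene KRT10-AS1 also has a start site. KRT27 had an H3K4me3 peak with a score of 228, at 1027 bp just outside the window.

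**Figure D3:**
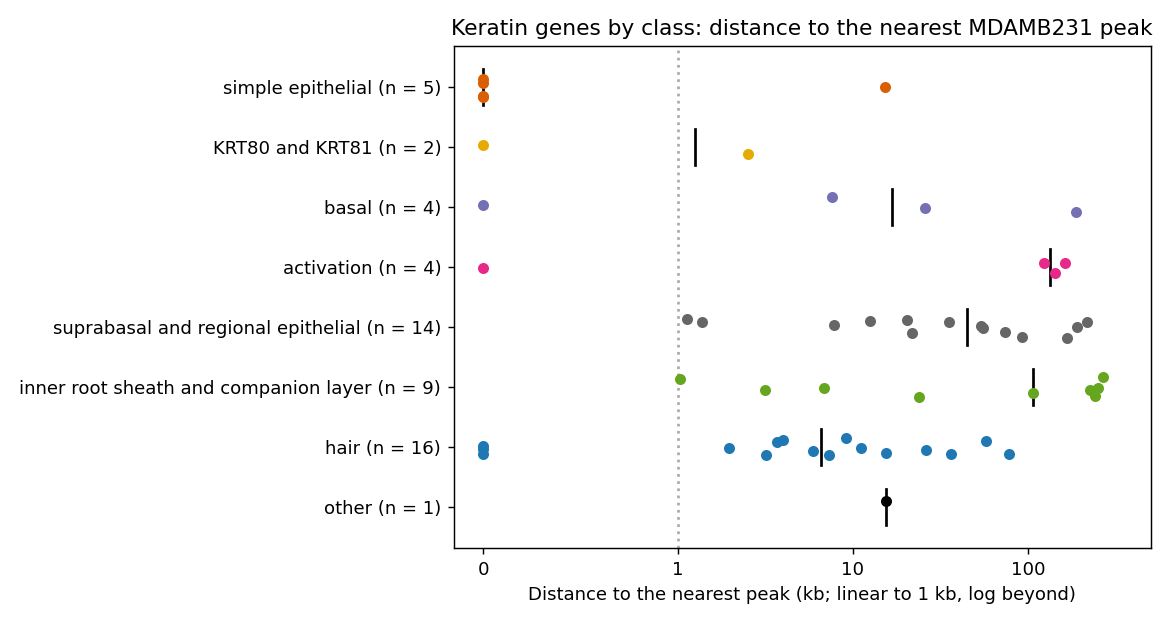
Distance (kb, linear to 1 kb and logarithmic beyond) from the closest start site to the nearest peak of any list, 1 point per keratin gene, by class, with the class median as a black line and the 1 kb window dotted. Simple epithelial keratins sit at 0 except KRT20, while 12 genes of the basal, activation, suprabasal and inner root sheath classes lie beyond 100 kb.

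Along the type II cluster (chr12:52562780-53346690, 784 kb), the peaks lay toward both ends. The cluster held 7 H3K4me3 peaks (8.93 per Mb against 7.03 for chromosome 12), 14 H3K27Ac peaks (17.9 against 14.6), 19 FAIRE peaks (24.2 against 16.9) and 5 H3K4me1 peaks (6.38 against 12.01). Between chr12:52721846 and 53263304, 541 kb held no peak of any list. This stretch contained 20 protein-coding genes, all keratins, from KRT85 to KRT78 with KRT5, KRT6A, KRT1 and KRT2 among them. It was the 14th longest of 2838 stretches without a peak on chromosome 12, and no other held as many protein-coding genes. One end of the cluster carried KRT80 and KRT7 and the other KRT8 and KRT18. At keratin promoters lay 4 of the 7 H3K4me3 peaks, 6 of the 14 H3K27Ac peaks, 1 of the 5 H3K4me1 peaks and 8 of the 19 FAIRE peaks.

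**Figure D4:**
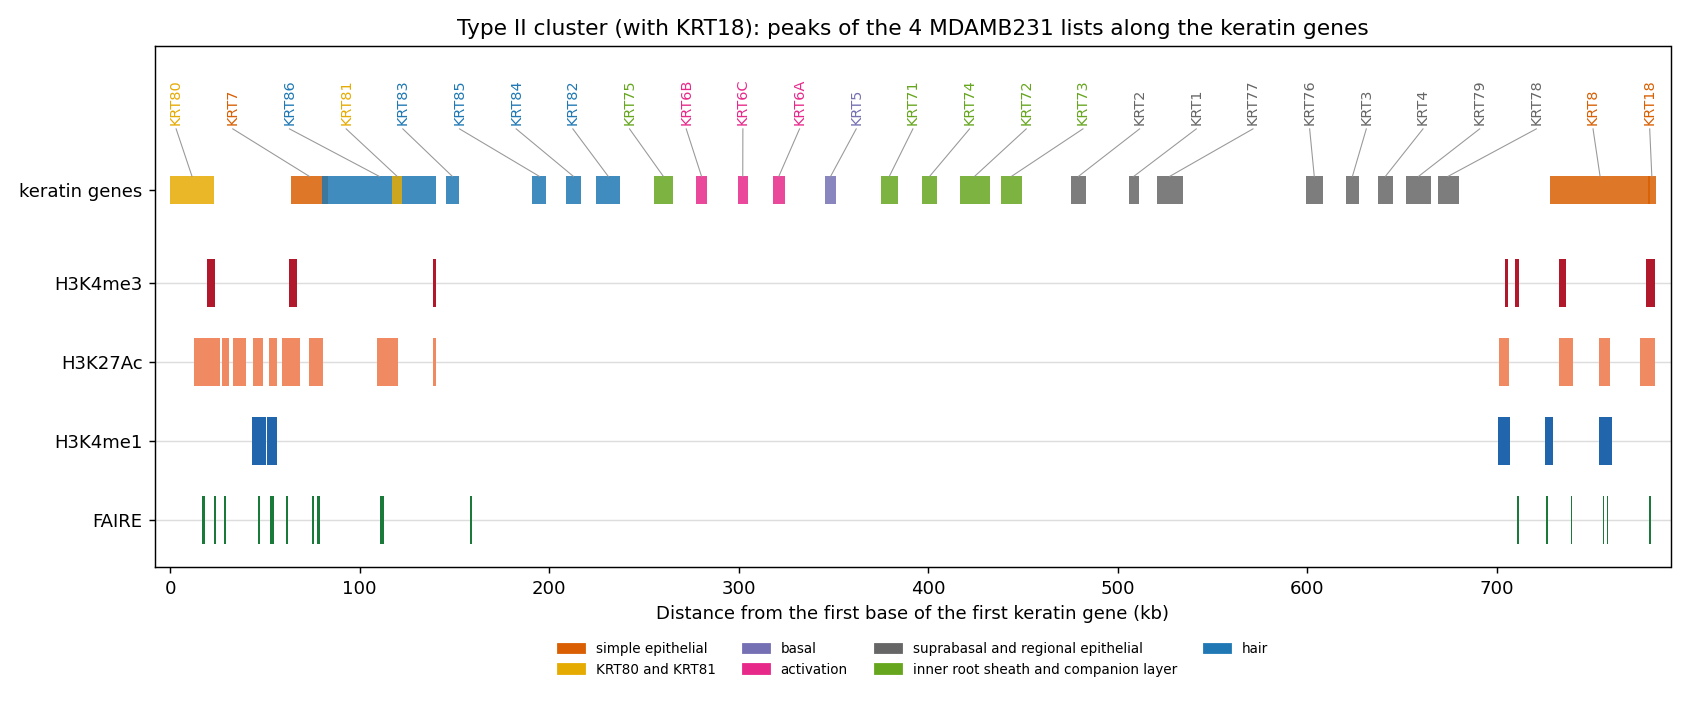
Peaks of the 4 lists (coloured bars, widths to scale, the narrowest drawn slightly wider) along the type II cluster, with 27 keratin genes coloured by class and kb counted from the first base of KRT80. Peaks lie at both ends, at KRT80, KRT7 and KRT86 and at KRT8 and KRT18, with an empty stretch of 541 kb between.

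Away from the promoters, the strongest acetylation of this cluster was an H3K27Ac peak of 5459 bp (chr12:52671800-52677258, score 3100) in an intron of KRT86, a basic hair keratin, with FAIRE peaks of heights 135 and 98.1. A start site of an unnamed long non-coding RNA lies there. At the 3′ end of KRT86, an H3K4me3 peak with a score of 1202 and an H3K27Ac peak with a score of 177 coincided, also at a start of a long non-coding RNA. In the 5 intergenic H3K27Ac peaks, scores ran from 77.8 to 1543, and 4 of these lay between KRT80 and KRT7.

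The type I cluster (chr17:38810917-39781094, 970 kb) showed another pattern. It held 4 H3K4me3 peaks (4.12 per Mb against 12.4 for chromosome 17), whereas H3K27Ac peaks were about as dense as on the chromosome (19, or 19.6 against 19.2 per Mb). H3K4me1 peaks numbered 20 (20.6 against 10.2 per Mb) and FAIRE peaks 29 (29.9 against 19.1). Few lay at keratin promoters, with 1 of 4 for H3K4me3, 3 of 19 for H3K27Ac, 2 of 20 for H3K4me1 and 2 of 29 for FAIRE. Between KRT10 and KRT19, 705 kb (chr17:38976718-39681999) with 50 protein-coding genes, 16 of them keratins, held no H3K4me3 peak, and no other H3K4me3-free stretch of chromosome 17 held as many. Of the 20 H3K4me1 peaks, 12 shared sequence with H3K27Ac, 15 (75.0%) with FAIRE and 1 with H3K4me3. Over all H3K4me1 peaks these shares were 74.7%, 71.4% and 15.6%. H3K27Ac and FAIRE together, without H3K4me3, were found at 11 (55.0%), against 50.2% of all, so the combination itself was about as frequent as elsewhere.

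**Figure D5:**
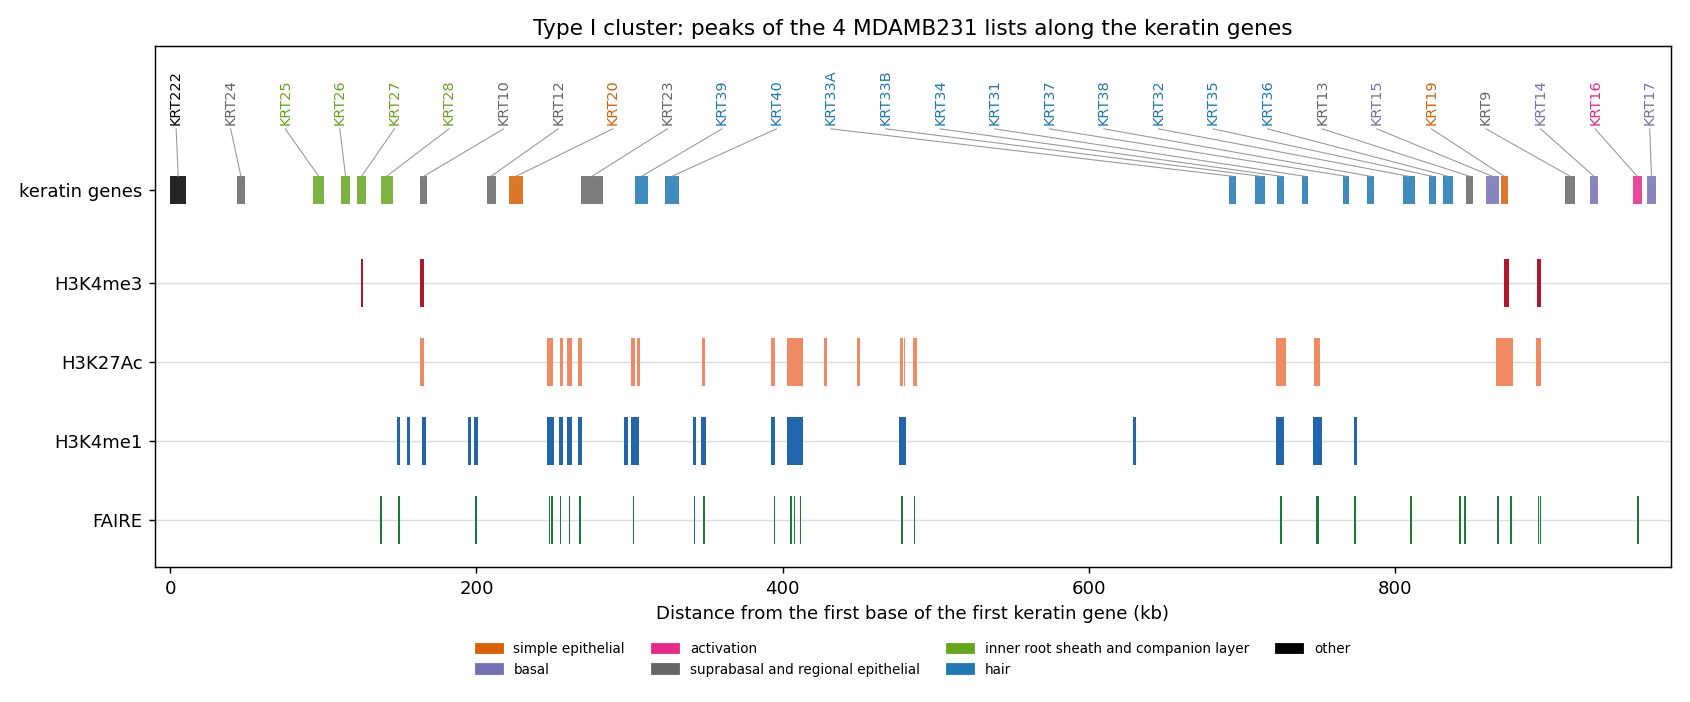
Peaks of the 4 lists (coloured bars, widths to scale, the narrowest drawn slightly wider) along the type I cluster, with 28 keratin genes coloured by class and kb counted from the first base of KRT222. Only 4 H3K4me3 peaks are seen, against 19 H3K27Ac, 20 H3K4me1 and 29 FAIRE peaks, most of them between keratin genes.

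Regions with H3K4me1, H3K27Ac and FAIRE peaks together lay both between the genes and over them. The strongest H3K4me1 peak of the cluster (chr17:39056713-39061415, score 553, higher than 96.1% of its list) coincided with an H3K27Ac score of 2506 and FAIRE heights of 93.5 and 116, between KRT20 and KRT23. Upstream of KRT31, an acidic hair keratin, a region (chr17:39557557-39563039) had an H3K4me1 score of 283, an H3K27Ac score of 1499 and the highest FAIRE peak of both clusters, at 155. The widest region, with an H3K27Ac peak of 10205 bp (score 3100) and an H3K4me1 peak of 10222 bp (score 249), covered the keratin-associated protein genes KRTAP2-3 and KRTAP2-4. Upstream of KRT19, in a region without an H3K4me1 peak, an intergenic H3K27Ac peak scored 2610, 18250 bp from the KRT19 start, with an H3K4me3 score of 73.5 and FAIRE peaks with heights up to 94.7 in the same place.

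The FAIRE peaks of both clusters were searched for TGANTCA, chosen because AP-1 sites carry these letters. The middle base was left open, so TGAATCA and TGATTCA counted beside the AP-1 forms TGACTCA and TGAGTCA. The share with the AP-1 forms alone was not counted. TGANTCA, which reads the same on both strands, was found in the central 300 bases of 20 of the 29 type I cluster peaks (69.0%, exact 95% binomial interval 49.2% to 84.7%, counting error over peaks only) and of 7 of the 19 type II cluster peaks (36.8%), against 39.2% of 46536 FAIRE peaks. In the central 150 bases the type I cluster share was 44.8%, against 23.1% of all FAIRE peaks. Peaks of a cluster are neighbours and not independent, whereas the interval takes them as independent, so it is no test of the share. No interval was computed for the type II cluster. Examples follow, with the match in capitals, from the peak near KRT31, the peak between KRT20 and KRT23, the peak next to KRT19, the peak at KRTAP2-4, and a peak with the match in the KRT80 intron, all read on the plus strand of GRCh37.
Near KRT31, chr17:39560330-39560356: ggggccccacTGACTCActttatgtca
Between KRT20 and KRT23, chr17:39058494-39058520: gcagtgacaaTGAGTCAgctgggccca
Next to KRT19, chr17:39686569-39686595: tggtcagctcTGAGTCAttcccttatc
At KRTAP2-4, chr17:39222630-39222656: gctccttccaTGACTCActtaaagata
In KRT80, chr12:52580053-52580079: aagctctctgTGACTCAggttgaaaga

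Other genes of the keratin system were set beside the family. Of 15 other intermediate filament genes, 8 carried an H3K4me3 peak, among them VIM, the vimentin gene, which had scores of 3100 for H3K4me3 and H3K27Ac, 145 for H3K4me1 and a FAIRE height of 84.0. Of 17 genes for keratin linkers, desmosomes and the cornified envelope, 10 carried H3K4me3 and 7 H3K27Ac, with DSP, the desmoplakin gene that anchors keratin filaments, at 3100 and 1072. No peak of any list was found at 7 of them (41.2%, against 29.3% of all genes), among them IVL, a gene of the cornified envelope, while PPL and EVPL of the same structure carried H3K4me3. Of 15 regulators of epithelial genes, 12 carried H3K4me3 and 9 H3K27Ac. TP63, the master regulator of the basal epithelial state, had no FAIRE peak at its promoter. Its scores were 203 for H3K4me3, 315 for H3K27Ac and 195 for H3K4me1, against list medians of 3100, 591 and 114. FOSL1, an AP-1 factor, had 3100 for both H3K4me3 and H3K27Ac. The shares with H3K4me3 were 53.3%, 58.8% and 80.0% in these lists, beside 67.3% of all protein-coding genes and 9.09% of the keratin genes. The shares with H3K27Ac were 53.3% and 41.2% in the filament and linker lists, and 9 of 15 in the regulator list, beside 63.5% of all genes and 16.4% of the keratin genes.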

How the data were processed

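The study performed ChIP-seq of H3K4me1, H3K4me3 and H3K27Ac and FAIRE-seq in MDAMB231 cells, with 2 samples per assay and 1 input per method. The authors aligned reads to hg19 with BWA, removed duplicates and poorly mapped reads with Samtools, and called histone peaks with MACS and FAIRE peaks with FindPeaks on combined samples. The score the authors deposited for a histone peak is its MACS p-value as −log10, multiplied by 10, and the deposited FAIRE value is a signal height. Lists were assigned to assays by name. Coordinates were taken as BED and are printed counted from 1. Promoters sharing 1 or more bases with a peak (start sites of GENCODE version 44 on GRCh37, widened by 1 kb on each side) were counted with Python 3.11.15, numpy 2.4.6 and pandas 2.3.3. The counting was tested on 3000 simulated windows, of which 0 differed from a direct comparison. Unique 50-base windows were found with numba 0.67.0, for keratin genes and every 25th other gene. Figures were drawn with matplotlib 3.10.9. No test was run, since each assay has 1 list. The background was all 20098 protein-coding genes. Sequences came from the GRCh37 reference genome, and the upstream sequences of single genes are not reported here. The members, the keratin classes and the other lists were chosen with earlier results of these data known. The genes named are those in the comparison of simple, basal and hair keratins, every other keratin gene with a promoter peak, and the nearest or farthest of a class. KRT10, KRT27 and the regions between genes were singled out after their values were seen. Alternatives were windows of 500 bp and 2 kb, the 5′ end of the gene only, protein-coding transcripts only, the peak centre in place of any base, MACS p at or under 1e-10 and FAIRE height at or above the median. The canonical start, stricter lists for the stretch without peaks, and other widths for TGANTCA were added after seeing the data.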

Additional observations from a re-analysis of the deposited data

How the results depend on the processing

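The H3K4me3 count stayed between 4 and 6 of 55 keratin genes over 7 alternatives, and the count without any peak between 41 and 48 over 8. With the peak centre inside the promoter, KRT80 left the H3K4me3 count, H3K27Ac fell from 9 to 5 genes (63.5% to 57.7% of all genes), with KRT80, KRT86, KRT34 and KRT15 lost, and H3K4me1 from 3 to 1 (20.0% to 8.64%). With the 5′ end of the gene only, H3K4me1 was found at 1 gene (11.9% of all) and peaks of all 4 lists at 0 (6.06%). KRT39 left the H3K27Ac count with the 5′ end only, with protein-coding transcripts only and at MACS p at or under 1e-10. With the 5′ end only, FAIRE peaks were found at 4 genes (30.6% of all), KRT7 and KRT16 being lost. KRT7 was also lost from the FAIRE count with protein-coding transcripts only (35.5% of all). KRT16 was also lost at FAIRE height at or above the median (24.4% of all). With start sites widened by 2 kb, FAIRE peaks were found at 11 genes in place of 6 (43.0% of all), KRT86, KRT34, KRT32, KRT13 and KRT19 being added. At the canonical start, chosen after seeing the data, H3K4me1 was found at 1 gene (12.3%), FAIRE at 3 (31.4%) and all 4 lists at 0 (6.50%). The cause of these shifts was not tested. The stretch of the type II cluster without peaks was 541459 bp, and 541929 bp with MACS p at or under 1e-10. The share of type I cluster FAIRE peaks with TGANTCA was 44.8% in the central 150 bases (23.1% of all) and 75.9% in the central 500 (50.6%). No paired analysis was possible because each deposited list holds both samples of an assay merged, and for the same reason no sample could be left out. The depth behind missing peaks is unknown here, and the part of repeated sequence around KRT81 and the KRT6 genes was not tested.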
